A study of Mus musculus with 6 samples.

Results

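The subject is the set of 7 genes whose products carry folate into cells and into mitochondria, bind it at the cell surface, and set the length of the glutamate chain that keeps it inside: Slc19a1, Slc46a1, Slc25a32, Folr1, Folr2, Fpgs and Ggh. They were taken by gene symbol from the deposited expression table, each symbol occurred once, and all 7 were found among its 55357 genes. The table covers 6 tumours that formed under the skin of C57BL/6J mice after injection of 250000 KPC1242 cells, a mouse pancreatic ductal adenocarcinoma (PDAC) line. The 3 FA tumours came from mice given 2 mg folinic acid by oral gavage every day from day 8 to day 12, the 3 PBS tumours from mice given phosphate-buffered saline on the same days, and all were collected on day 14. The labels give neither the age nor the sex of the mice, and do not state that each tumour came from a different mouse, so p-values measure the spread between these tumours. The sample descriptions carry a common prefix in each group, and what it marks cannot be told apart from treatment.

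Folates are charged molecules that cross membranes poorly. The reduced folate carrier (Slc19a1) exchanges them at neutral pH, the proton-coupled carrier (Slc46a1) works best in acid, and the receptors Folr1 and Folr2 bind them tightly and are taken up by endocytosis. Inside the cell, folylpolyglutamate synthase (Fpgs) adds glutamates that trap folate, and gamma-glutamyl hydrolase (Ggh) of the lysosome removes them. Folinic acid is 5-formyltetrahydrofolate, a reduced folate that enters mainly by the reduced folate carrier and is brought into the active pool by the enzyme Mthfs.

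Sequence upstream of annotated starts is shown for 3 of the genes chosen after their values were seen: Folr2, Fpgs and Slc19a1. The level of Folr2 varied the most of the members with at least 1 TPM (coefficient of variation 40.2% over the 6 tumours). Fpgs and Slc19a1 varied less (12.5% and 8.33%). Whether these starts are used in the tumours, and so whether the windows act as promoters, was not tested. RefSeq windows (GRCm38.p6) matched 4 of 7 members, namely Fpgs, Folr2, Slc19a1 and Slc46a1. Folr1, Ggh and Slc25a32 were not matched. Any member window listed on an excluded chromosome was dropped before the search, and how many were dropped was not recorded. Each sequence below is the 250 bases before an annotated start, read 5′ to 3′ on the gene's strand, with GC boxes (GGGCGG on either strand) in capitals. Folr2 has a pair of annotated starts, both shown, and the upstream one of the Slc19a1 pair is given.
Fpgs, chr2:32694176-32694425, minus strand: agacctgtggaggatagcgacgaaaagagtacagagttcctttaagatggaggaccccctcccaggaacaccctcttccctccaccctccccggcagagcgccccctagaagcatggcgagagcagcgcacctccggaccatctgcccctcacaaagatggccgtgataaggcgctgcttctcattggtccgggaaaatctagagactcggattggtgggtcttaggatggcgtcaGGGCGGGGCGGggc
Slc19a1, chr10:77032489-77032738, plus strand: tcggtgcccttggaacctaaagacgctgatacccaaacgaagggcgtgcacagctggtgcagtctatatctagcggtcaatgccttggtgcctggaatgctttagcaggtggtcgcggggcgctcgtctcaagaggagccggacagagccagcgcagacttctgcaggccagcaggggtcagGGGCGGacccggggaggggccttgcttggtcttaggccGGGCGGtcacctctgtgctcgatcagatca
Folr2, chr7:101857191-101857440, minus strand: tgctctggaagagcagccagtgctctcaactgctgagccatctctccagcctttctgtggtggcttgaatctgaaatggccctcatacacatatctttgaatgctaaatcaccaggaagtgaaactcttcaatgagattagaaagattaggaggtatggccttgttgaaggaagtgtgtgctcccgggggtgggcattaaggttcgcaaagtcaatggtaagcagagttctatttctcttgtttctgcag
Folr2, chr7:101845332-101845581, minus strand: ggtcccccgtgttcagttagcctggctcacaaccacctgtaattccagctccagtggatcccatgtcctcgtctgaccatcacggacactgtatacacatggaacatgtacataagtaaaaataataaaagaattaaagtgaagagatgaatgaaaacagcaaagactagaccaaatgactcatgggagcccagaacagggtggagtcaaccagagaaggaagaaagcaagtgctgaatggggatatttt

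The Fpgs window held 2 overlapping GC boxes, the Slc19a1 window 2 separate ones and the Slc46a1 window 1, while 0 were found in either Folr2 window or at the other Slc19a1 start. Of 32851 windows of this length in the same table, 32.7% held a GC box. The share of G and C was 60.4% for Fpgs, 62.0% at both Slc19a1 starts, 49.6% for Slc46a1, and 46.4% and 44.4% for Folr2, against a median of 52.4% over all windows. The other motifs searched on both strands were the NRF1 motif (GCGC, then 2 free bases, then GCGC, in 4.98% of all windows), the E-box CACGTG (in 6.02%) and the purine-rich ETS motif GAGGAA (in 23.3%). None of these was found in the 6 member windows. A match, or none, says only which letters these windows hold.

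Over whole tumours, FA replicate 3 stood apart. Across tested genes, which are no replicates, its r with the other tumours was 0.949 to 0.968, beside 0.981 to 0.987 among those 5. Of the 6 members with a mean of at least 1 TPM, 3 (Folr2, Fpgs and Slc25a32) were highest and 1 (Ggh) lowest in it, and of all tested genes 29.4% were highest and 37.5% lowest. Between 23858 and 25669 genes were listed above 0 in a tumour. Where values of a group are listed below, they follow replicates 1 to 3.

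Expression is given as TPM (a transcript level scaled by length and to the same total in each tumour), so genes can be set against each other. Ordered by the mean over the 6 tumours, Fpgs stood at 27.8 TPM, Ggh at 26.5, Folr2 at 17.6, Slc19a1 at 15.6, Slc25a32 at 11.6, Slc46a1 at 7.32 and Folr1 at 0.248. The lower part of this order was firm: Slc19a1 exceeded Slc25a32, Slc25a32 exceeded Slc46a1, and Slc46a1 exceeded Folr1 in 6 of 6 tumours each, with ranges that did not overlap. The upper part was not. Fpgs exceeded Ggh in 3 of 6 tumours, Ggh exceeded Folr2 in 5 of 6 and Folr2 exceeded Slc19a1 in 4 of 6, so these neighbours did not differ beyond their spread. All 6 tumours carried transcripts for both surface carriers, the mitochondrial carrier and both polyglutamation enzymes, with Folr2 as the main folate receptor transcript. In whole-tumour RNA, fewer cells of a type and less RNA per cell cannot be told apart.

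The comparison of FA with PBS tumours asks whether folinic acid gavage went with altered transcripts of these genes. No member was called: 0 of the 6 members with a mean of at least 1 TPM passed limma's test on log2(TPM + 1) at an adjusted p under 0.05, against 0% of the 15023 genes tested, and every one of the 6 had an adjusted p = 1. Without adjustment, 0 of 6 had a p under 0.05, where 1.28% of all tested genes had. The FA and PBS values overlapped for all 6, while they did not overlap for 4.69% of all tested genes. Means were higher after FA for 4 members and lower for 2, with a median log2 difference of 0.091 beside 0.0016 over all tested genes. The 95% intervals of the fold difference, on the TPM + 1 scale, lay between 0.720 and 1.33 for 5 of the members and ran from 0.675 to 2.31 for Folr2.

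**Figure D1:**
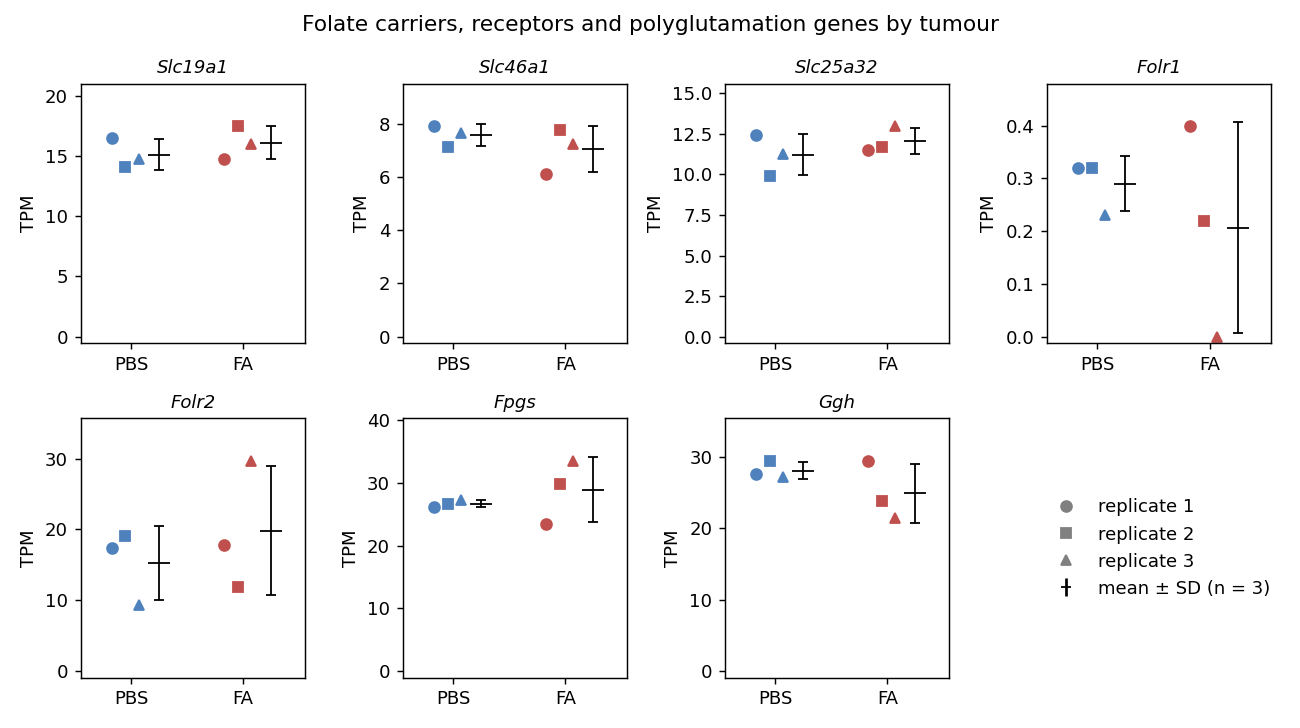
TPM of each of the 7 genes (vertical axis) in PBS (blue) and FA (red) tumours, with 1 point per tumour and the mean ± SD of 3 tumours as a black bar. The groups overlap for every gene, Folr2 spreads from 9.39 to 29.72 TPM, and Folr1 lies at or under 0.4 TPM.

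The plasma membrane carriers varied little between tumours. Slc19a1 (ENSMUSG00000001436) was at 14.75, 17.50 and 16.02 TPM after FA and at 16.52, 14.06 and 14.75 TPM after PBS. The means were 16.1 ± 1.38 and 15.1 ± 1.27 TPM (SD, n = 3 each). The highest value came from FA replicate 2 and the next from PBS replicate 1, and the difference on the log2 scale was 0.09 ± 0.11 (SE).

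Slc46a1 (ENSMUSG00000020829), the carrier that also absorbs folate in the gut, was at 6.12, 7.79 and 7.27 TPM after FA and at 7.94, 7.14 and 7.67 TPM after PBS. Its means were 7.06 ± 0.855 and 7.58 ± 0.407 TPM, a log2 difference of -0.10 ± 0.12. FA replicate 1 was the lowest of the 6, the other 5 lay between 7.14 and 7.94 TPM, and without it the difference was -0.0086. The residual SD of Slc46a1 around its group means was 0.663 times the value that the fit's trend of SD on mean gives at its level, and that of Slc19a1 0.761 times.

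Set against each other within a tumour, the carriers gave the one separation of groups among the 4 within-tumour differences tested. Slc19a1 exceeded Slc46a1 by a TPM ratio of 2.41, 2.25 and 2.20 after FA and 2.08, 1.97 and 1.92 after PBS. Every FA tumour was above every PBS tumour. On the log2(TPM + 1) scale the difference between the carriers was 1.09 ± 0.053 after FA and 0.907 ± 0.057 after PBS, 0.18 higher after FA, with an exact two-sided permutation p = 0.1, the smallest that 3 against 3 allows. After Benjamini-Hochberg adjustment over these 4, the exact permutation p became 0.4, so it did not pass. The difference lay between 0.15 and 0.21 with any 1 tumour left out, and without FA replicate 1 the exact permutation p was 0.2.

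The mitochondrial carrier Slc25a32 (ENSMUSG00000022299), which brings folate to the mitochondrial one-carbon enzymes, was at 11.49, 11.70 and 13.00 TPM after FA and at 12.45, 9.91 and 11.27 TPM after PBS. The extremes were FA replicate 3 and PBS replicate 2, and the remaining 4 tumours interleaved. Means of 12.1 ± 0.818 and 11.2 ± 1.27 TPM gave a log2 difference of 0.10 ± 0.11. Slc25a32 minus Slc19a1 was -0.39 ± 0.138 after FA and -0.40 ± 0.055 after PBS on the log2(TPM + 1) scale (exact two-sided permutation p = 0.8, adjusted p = 0.8).

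**Figure D2:**
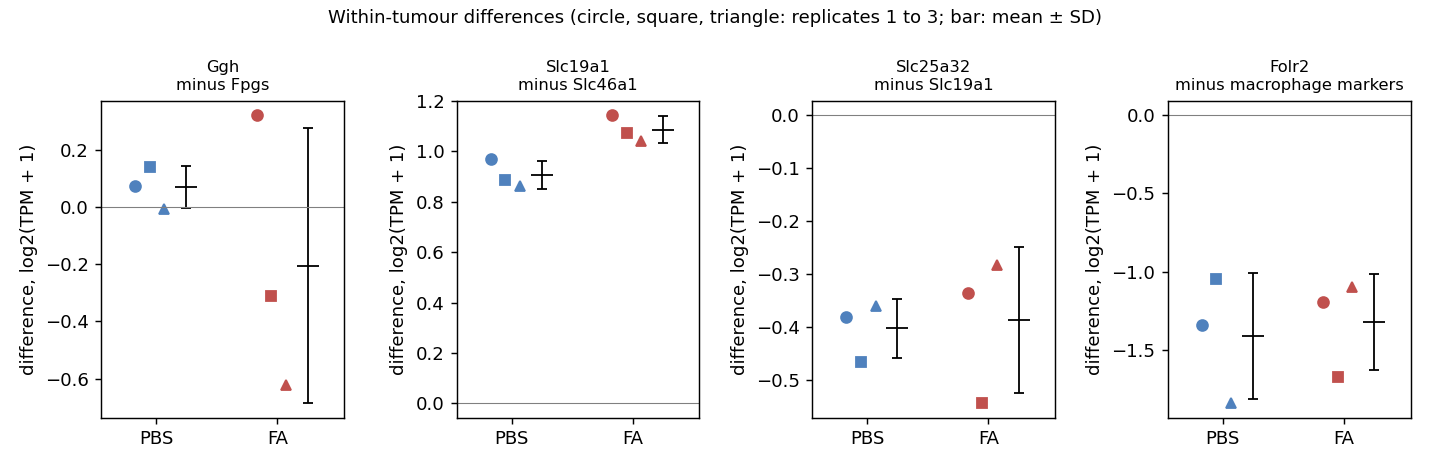
Differences between transcripts of the same tumour on the log2(TPM + 1) scale (vertical axis), in PBS (blue) and FA (red) tumours, with the mean ± SD of 3 tumours as a black bar. Slc19a1 minus Slc46a1 is the one panel in which the groups do not overlap, at 1.04 to 1.15 after FA and 0.861 to 0.971 after PBS.

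The receptors differed widely in level. Folr1 (ENSMUSG00000001827), the alpha receptor of epithelia and many carcinomas, was at 0.40 and 0.22 TPM and listed at 0 in FA replicates 1, 2 and 3, and at 0.32, 0.32 and 0.23 TPM after PBS. It stayed under the minimum of 1 TPM and was not tested. The 8 epithelial markers stood at very unequal levels. Krt18 lay between 1576.62 and 1828.56 TPM and Krt19 between 1071 and 1312 TPM. Epcam lay between 26.13 and 111.11 TPM and Cldn4 between 1.27 and 6.88 TPM. Folr1 minus the mean of the 8 markers lay between -8.22 and -7.3 on the log2(TPM + 1) scale. Izumo1r, a folate receptor relative that serves as the egg's sperm receptor, was under 0.2 TPM everywhere.

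Folr2 (ENSMUSG00000032725), the beta receptor known from tissue-resident macrophages, was at 17.85, 11.91 and 29.72 TPM after FA and at 17.43, 19.07 and 9.39 TPM after PBS. FA replicate 3 was the highest and PBS replicate 3 the lowest, a range of 3.17-fold, and the other 4 tumours of both groups lay between. Means were 19.8 ± 9.07 and 15.3 ± 5.18 TPM, a log2 difference of 0.32 ± 0.37. Its residual SD was 3.89 times the trend value at its level and exceeded that of 94.7% of tested genes. Without FA replicate 3 the difference was -0.0059, and without FA replicate 2 it was 0.62.

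Macrophage markers moved with Folr2 in part. Of 15 markers, 14 averaged at least 1 TPM, Timd4 did not, and none was at 0 in every tumour. The summed TPM of the list ranged from 1954 to 2767 after FA and from 1825 to 2118 after PBS, and 12 of the 15 were highest in FA replicate 3. FA replicate 3 also had the highest summed fibroblast (6548 TPM, against 1844 to 3545 elsewhere), endothelial (200.9 against 53.6 to 92.1) and skeletal muscle markers (1103 against 12.7 to 159.7). Summed epithelial markers were highest in it too, by a narrow margin (5857 TPM against 4912 to 5794), as were proliferation markers (771.3 against 615.2 to 731.7). Abundant genes weigh most in such sums, as Lyz2 did among macrophage markers (1239.78 TPM in FA replicate 3). Members of a list did not all move alike. Of the 8 epithelial markers 4 were highest in FA replicate 3, while Cdh1 (252.87 TPM) and Muc1 (238.28 TPM) were lowest in it. The macrophage marker Selenop was also lowest in it, at 345.82 TPM. The part of these cell types in the Folr2 values was not tested. The 9 lymphocyte markers summed to at most 3.19 TPM.

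Relative to the mean of the 14 macrophage markers, Folr2 stood at -1.19, -1.67 and -1.10 after FA and -1.34, -1.05 and -1.84 after PBS on the log2(TPM + 1) scale. FA replicate 3 was not the highest on this scale: PBS replicate 2 was. The means of -1.32 ± 0.306 and -1.41 ± 0.400 differed by 0.088 (exact two-sided permutation p = 0.7, adjusted p = 0.8). Across the 6 tumours, which share these libraries, Folr2 followed Cd163, the haemoglobin scavenger receptor of resident macrophages, with a Pearson's r of 0.955 and a Spearman's rho of 0.943. Over the other 13 markers r ran from -0.528 for Selenop to 0.832 for C1qa, and rho from 0.029 for Pf4 to 0.771 for Lyve1. Cd163 itself was at 5.93, 3.86 and 9.73 TPM after FA and 4.12, 5.52 and 2.70 TPM after PBS. These coefficients describe 6 points and carry no p.

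In the GENCODE vM21 transcripts, 52.6% of the 50-base stretches of Folr2 lie opposite to Gm10602, an antisense gene. No source used here says whether strand was kept in counting, and reads of the pair may have been mixed. Gm10602 was listed between 1.99 and 3.05 TPM, and its part in the Folr2 values was not tested. For the other members at most 2.22% of such stretches occurred in another gene's transcripts on the same strand, and at most 0.303% on the opposite strand. Both of these shares were those of Fpgs, with Mir8093 and Eng as the other genes. Eng was at 70.31 TPM in FA replicate 3, where Fpgs was highest, and between 13.98 and 29.08 TPM elsewhere. Its part in the Fpgs values was not tested.

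**Figure D3:**
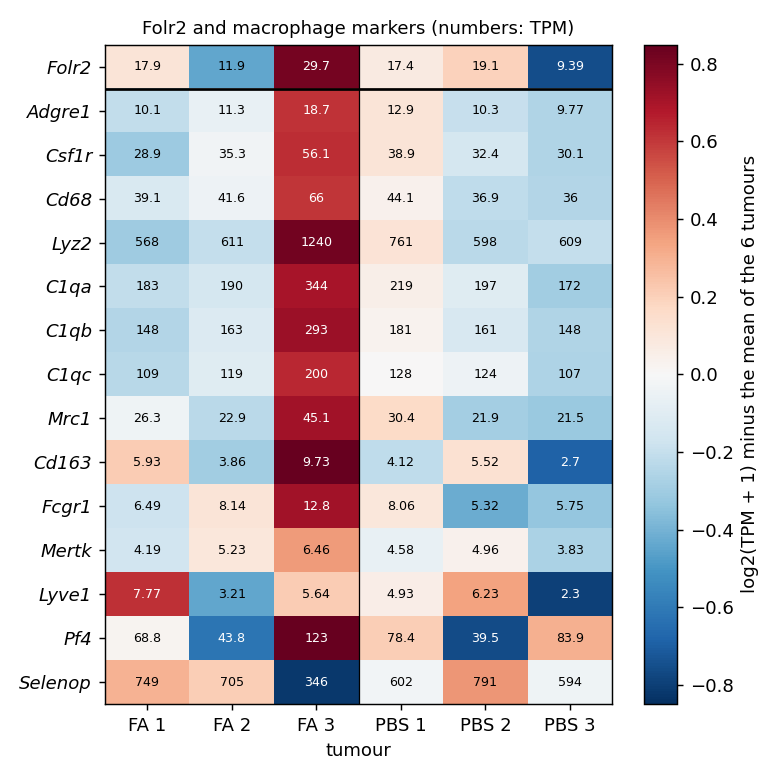
Folr2 (top row) and 14 macrophage markers in the 6 tumours; colour is log2(TPM + 1) minus the mean of the 6 tumours and the printed numbers are TPM. FA 3 is high in most rows, and PBS 3, where Folr2 is lowest (9.39 TPM), is also the lowest tumour for 9 of the 14 markers.

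The polyglutamation enzymes ranked in opposite order among the FA tumours, but not among the PBS tumours. Fpgs (ENSMUSG00000009566) was at 23.39, 29.86 and 33.54 TPM after FA and at 26.21, 26.63 and 27.26 TPM after PBS. The PBS tumours lay close together, and the FA tumours spread to both sides of them. Means of 28.9 ± 5.14 and 26.7 ± 0.529 TPM gave a log2 difference of 0.10 ± 0.13, with an unadjusted p = 0.492 (limma). Without FA replicate 3 the difference was -0.014 (unadjusted p = 0.905, limma). Without FA replicate 1 it was 0.24 (unadjusted p = 0.0464, adjusted p = 0.829, limma).

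Ggh (ENSMUSG00000073987) was at 29.50, 23.86 and 21.43 TPM after FA and at 27.67, 29.44 and 27.13 TPM after PBS. FA replicate 1 was the highest, although only just above PBS replicate 2, and FA replicates 2 and 3 were below all PBS tumours. Means of 24.9 ± 4.14 and 28.1 ± 1.21 TPM gave a log2 difference of -0.18 ± 0.12, with an unadjusted p = 0.202 (limma). Without FA replicate 1 it was -0.30, with an unadjusted p = 0.0237 and an adjusted p = 0.829 (limma). Without FA replicate 3 it was -0.078, with an unadjusted p = 0.482 and an adjusted p = 1.0 (limma). Over all settings the adjusted p ranged from 0.829 to 1. Across 11 other lysosomal genes the log2 differences ran from -0.13 to 0.14, and none had an unadjusted p under 0.05.

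The balance of hydrolase to synthetase, as the TPM ratio of Ggh to Fpgs, was 1.26, 0.799 and 0.639 after FA and 1.06, 1.11 and 0.995 after PBS. The FA tumours thus held both the highest and the lowest ratios. On the log2(TPM + 1) scale the means were -0.20 ± 0.482 and 0.069 ± 0.073, a difference of -0.27 (exact two-sided permutation p = 0.4, adjusted p = 0.8). It was -0.54 without FA replicate 1 (exact p = 0.1, the smallest that 2 against 3 tumours can give) and -0.064 without FA replicate 3 (exact p = 0.8). The SD was larger among FA than among PBS tumours for Fpgs, Ggh and their balance; a difference in spread was not tested.

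Over the 6 tumours Fpgs and Ggh had a Pearson's r of -0.942 (exact permutation p = 0.00694, adjusted p = 0.104 over the 15 pairs of members) and a Spearman's rho of -0.943 (exact permutation p = 0.0167, adjusted p = 0.25). This was the largest coefficient of the 15 pairs in size and did not pass the adjustment. Without FA replicates 1 and 3, the values of Fpgs farthest from its median, r was -0.919. FA replicate 2 then stood apart from the PBS tumours in both genes (Fpgs 29.86 against 26.21 to 27.26 TPM, Ggh 23.86 against 27.13 to 29.44 TPM). That coefficient therefore cannot show whether the relation holds beyond 1 FA tumour. With each group centred on its own mean r was -0.971, where the FA tumours had the wider spread in both genes. TPM values share a common total in each tumour. For the carriers Slc19a1 and Slc46a1, r was 0.550 (exact permutation p = 0.272, adjusted p = 0.636) and rho 0.754 (exact permutation p = 0.111, adjusted p = 0.555). Their r was 0.572 without FA replicate 2 and PBS replicate 2, and 0.891 with each group centred on its own mean.

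**Figure D4:**
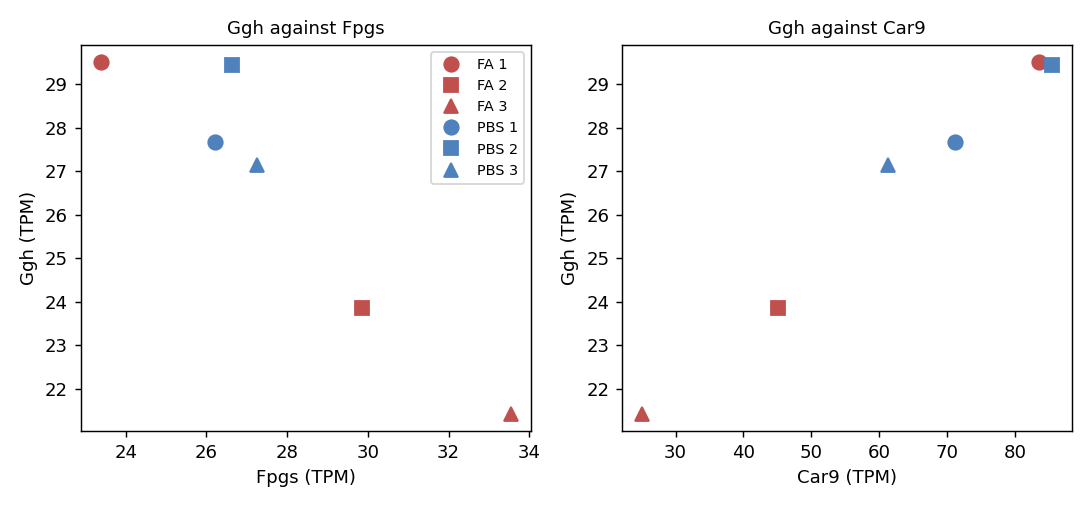
Ggh (vertical axis, TPM) against Fpgs (left) and against Car9 (right), with 1 point per tumour, FA red and PBS blue; the axes do not start at 0. Ggh is at 29.50 TPM in the tumour with the least Fpgs (23.39 TPM) and at 21.43 TPM in the tumour with the most (33.54 TPM), which also has the least Car9 (25.10 TPM).

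The genes with the most similar pattern were sought among 10865 others with a symbol and a mean of at least 5 TPM. With 6 tumours and so many candidates high coefficients are found for any gene, so they carry no p. For Ggh they were Iqcc (r of 0.994), the phosphatase gene Ptp4a1 (0.990) and Car9 (0.989), which encodes carbonic anhydrase 9, a target of the hypoxia response. Car9 was at 83.59, 45.12 and 25.10 TPM after FA and 71.14, 85.45 and 61.34 TPM after PBS, so FA replicates 2 and 3 were lowest for both. In all, 330 candidates (3.04%) had an r above 0.9 with Ggh.

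For Fpgs the nearest were Znhit2 (0.997), Kti12 (0.995) and C1qtnf5 (0.995), each with a Spearman's rho of 1. For Folr2 they were Wfdc17 (0.985), Slc35a3 (0.983) and Efcab11 (0.982). Wfdc17, a secreted protein gene of activated macrophages, was at 44.19, 36.55 and 75.15 TPM after FA and at 46.73, 47.21 and 29.53 TPM after PBS, with the same highest and lowest tumours as Folr2.

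The carriers resembled other genes. Slc19a1 was closest to Mmachc (0.990), a cobalamin-processing gene, then to Med22 (0.986), a Mediator subunit gene, and Aoc2 (0.984). Slc46a1 was closest to Gtpbp1 (0.993), Cep350 (0.984) and the polyadenylation factor gene Cpsf2 (0.983), and had 14 candidates above 0.9, the fewest of the 6 members. Slc25a32 was closest to Mex3b (0.992), the acetyltransferase gene Naa50 (0.992) and Ttf2 (0.992).

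Enzymes that use folate downstream of these carriers were not called either. Of 21 cytosolic and mitochondrial folate enzymes, 19 averaged at least 1 TPM, and 0 passed the limma test in either direction, with 0 at an unadjusted p under 0.05. Means were higher after FA for 11 and lower for 8, and the median log2 difference was 0.044, which was -8e-04 without FA replicate 3 and 0.12 without PBS replicate 1. Mthfs, which acts on folinic acid itself, was at 9.80, 12.97 and 9.0 TPM after FA and 9.58, 7.84 and 11.36 TPM after PBS, a log2 difference of 0.13 ± 0.18. The highest value was in FA replicate 2 and the next in PBS replicate 3.

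The groups did not overlap for 1 of the 19 enzymes, beside 4.69% of all tested genes. Mtfmt, which formylates the mitochondrial initiator tRNA, was at 9.86, 11.55 and 11.28 TPM after FA and 9.34, 8.45 and 9.80 TPM after PBS (log2 difference 0.22 ± 0.11, limma adjusted p = 1). All FA tumours were above all PBS tumours, with FA replicate 1 just above PBS replicate 3.

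Among the other enzymes, Mthfd2 of the mitochondrial pathway was at 37.9 ± 14.1 and 30.0 ± 3.72 TPM and Shmt2 at 94.9 ± 17.2 and 86.4 ± 7.02 TPM, both highest in FA replicate 3. Without that tumour their differences were -8e-04 and -0.020. Thymidylate synthase (Tyms) was at 60.5 ± 10.1 and 61.5 ± 11.6 TPM.

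Genes of folate efflux and of receptor-mediated uptake were also without a call. Of 6 efflux pump genes 5 were tested, all 5 had a higher mean after FA, from 0.012 to 0.18 on the log2 scale, and 0 passed in limma, also at an unadjusted p under 0.05. The groups did not overlap for 1 of the 5, beside 4.69% of all tested genes. This was Abcc3, at 38.16, 42.46 and 37.90 TPM after FA and 34.06, 37.55 and 34.55 TPM after PBS (adjusted p = 1, limma). Abcc5 was the most abundant, at 119.9 ± 22.8 and 116.5 ± 5.20 TPM.

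Of the endocytic receptor genes, Lrp2 (megalin), which takes up filtered folate-binding protein in the kidney, was at 6.67, 8.54 and 5.86 TPM after FA and at 4.37, 5.71 and 4.27 TPM after PBS. All FA tumours exceeded all PBS tumours, with FA replicate 3 just above PBS replicate 2. Groups did not overlap for 1 of the 2 endocytic receptor genes tested, beside 4.69% of all tested genes. An unadjusted p under 0.05 (limma) was found for 1 of these 2, beside 1.28% of all tested genes. For Lrp2 the log2 difference was 0.47 ± 0.17, with an unadjusted p = 0.0307 and an adjusted p = 1 (limma). Its partner Cubn was at 4.64 ± 0.832 and 4.07 ± 0.0265 TPM and Amn was under 1 TPM. The family relatives Slc19a2, a thiamine carrier, and Slc46a3 differed by -0.024 and -0.070 on the log2 scale, Slc19a3 was under 1 TPM, and Slc46a2 was listed at 0 in all 6 tumours.

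**Figure D5:**
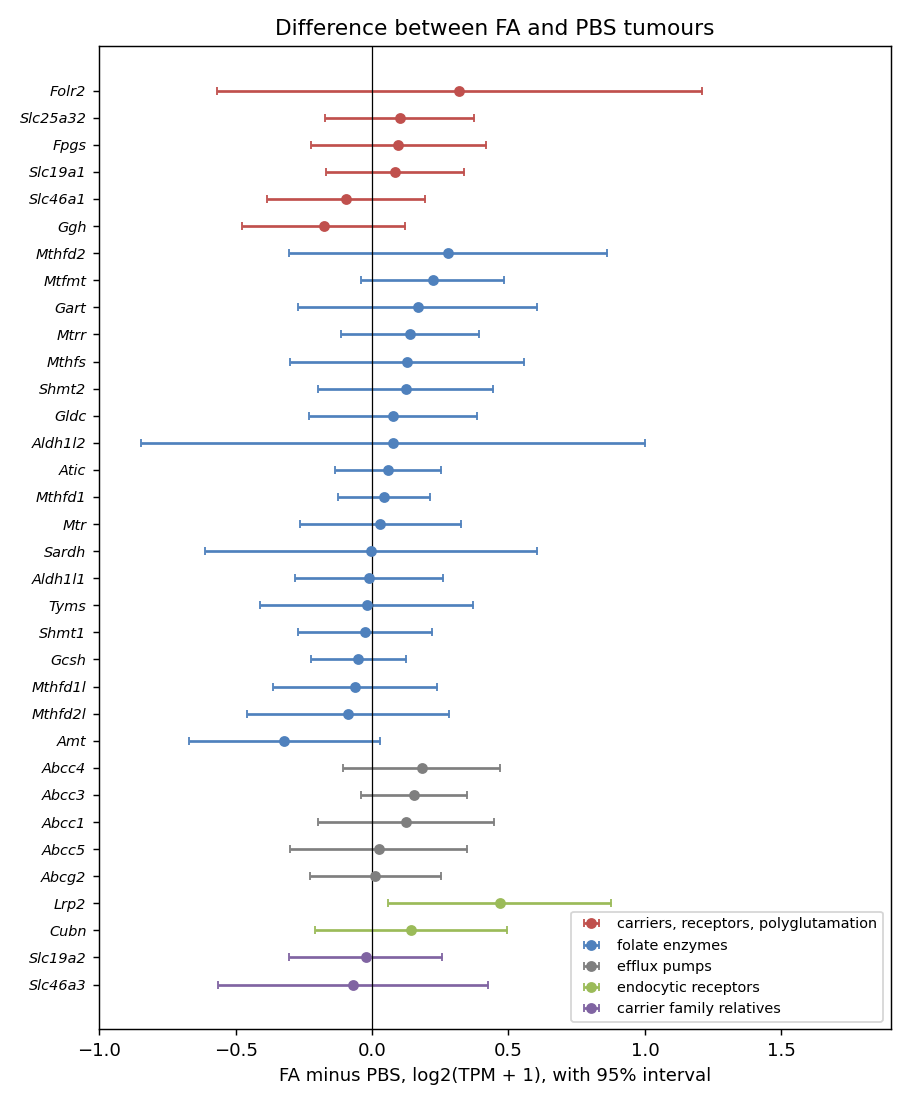
Log2(TPM + 1) difference, FA minus PBS (horizontal axis), with 95% intervals from limma, for the 6 tested members (red), 19 folate enzymes (blue), 5 efflux pumps (grey), 2 endocytic receptors (green) and 2 carrier family relatives (purple). All intervals include 0 except that of Lrp2, which runs from 0.059 to 0.88 before adjustment.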

How the data were processed

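Total RNA of 6 tumours (integrity number above 8) was made into stranded total RNA libraries from 4 µg with 12 PCR cycles, per the labels' protocols. The authors deposited 1 table of TPM for all genes; per the submitters' processing notes, RSEM, featureCounts, STAR and FastQC were used, with neither version nor role given. Genome build and annotation: not given in the sources used here. TPM holds no depth, so reads per tumour are unknown and no counting interval is given. Columns were matched to tumours by sample description; 0 columns were unmatched.

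Values were analysed as log2(TPM + 1), which understates changes of low genes, in R 4.3.3 with limma 3.58.1 on all 15023 genes averaging 1 TPM or more (group as the only term, variance trend, two-sided, Benjamini-Hochberg, threshold 0.05). Errors are SD beside TPM and SE beside fitted differences. Within-tumour differences were compared by exact permutation over 20 assignments; Folr1 minus epithelial markers had no test because Folr1 averaged under 1 TPM, which left 4. The fit was run on simulated data with independent noise for each gene, so a tumour that stands apart was not simulated. The members and lists were chosen with earlier results of these data known. Genes named are all members, the folate enzymes with non-overlapping groups and 4 fixed ones, up to 4 per other list by smallest p, and the 3 most correlated genes per member; others (among them Slc46a2, Izumo1r, Selenop, Pf4, Timd4, Krt19, Gm10602) were chosen after their values were seen or to account for a list. Of the folate enzyme list and its fixed names, 2 genes are not reported here. Replicate numbers did not pair tumours.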

Additional observations from a re-analysis of the deposited data

How the results depend on the processing

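Each choice was changed singly: the replicate block was added, tumours were weighted or left out singly, the variance trend was dropped, the threshold was raised to 0.1, the pseudocount was lowered to 0.5 or 0.1, the filter was removed or raised to 5 TPM, and values were rescaled by median ratios, by quantiles, or without the 50 highest and the mitochondrially encoded genes. The counts of 0 members, 0 folate enzymes and 0 other transport genes called by limma held in all 17. With no tumour left out, each member tested kept its direction. Leaving out 1 tumour gave ranges that crossed 0, with FA replicate 3 as the tumour whose absence gave the lowest value unless named, for Folr2 (-0.0059 to 0.62), Fpgs (-0.014 to 0.24), Shmt2 (-0.020 to 0.20), Mthfd2 (-8e-04 to 0.47), Tyms (-0.15 to 0.13), the median of the folate enzymes (-8e-04 to 0.12), Slc25a32 minus Slc19a1 (-0.036 to 0.094), Mthfs (-0.014 without FA replicate 2, to 0.25) and Folr2 minus macrophage markers (-0.13 without PBS replicate 3, to 0.27). Ranges that did not cross 0 were 0.026 to 0.15 for Slc19a1, 0.022 to 0.17 for Slc25a32, -0.16 to -0.0086 for Slc46a1, -0.30 to -0.078 for Ggh and -0.54 to -0.064 for Ggh minus Fpgs. The cause was not tested. Folr1 minus epithelial markers was -0.32 as reported and -0.85 with a pseudocount of 0.1, which spreads values near 0. Same-numbered tumours did not deviate together (correlations of -0.208, 0.053 and -0.022), and with the replicate block 0 members were called, with a Ggh difference of -0.18. Limits set by depth cannot be given from TPM.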
